A study of Mus musculus with 4 samples.

Results

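Cycling mesenchymal cells are the smooth muscle cells, fibroblasts and related cells of the aortic wall that carried RNA of dividing cells. They were chosen by detected genes: a cell barcode needed 500 or more detected genes, no more than 10% of its UMIs (unique molecular identifiers, 1 per captured transcript) from mitochondrial genes, no UMI of the leukocyte gene Ptprc or the endothelial gene Pecam1, and a UMI of at least 3 of the 6 cycle genes Mki67, Top2a, Birc5, Cdk1, Ube2c and Cenpf. In all, 1054 of 31676 deposited barcodes met this rule. Some of them also carried macrophage markers, as given below. A smooth muscle gate held cells with at least 5 UMIs of Myh11 and none of Pdgfra, and a fibroblast gate held cells with at least 1 UMI of Pdgfra and at most 2 of Myh11.

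The study set the response to angiotensin II (AngII), a vasoconstrictor peptide, in aortic cells derived from the second heart field (SHF) beside that in cells of other origins. All cells came from aortas of male mice of the strain Mef2c-mTmG, where mTmG is a membrane reporter that switches colour after Cre recombination, and living single cells were sorted by lineage before capture with a droplet-based 3' kit. The groups used here are SHF_Baseline (SHF lineage, harvested at baseline), SHF_AngII (SHF lineage, infused with AngII for 3 days) and CNC_AngII (the other sorted lineage, named CNC and not spelled out by the labels, also infused for 3 days). CNC_Baseline was not analysed here. The labels give neither age nor the number of mice behind a library. Each group is 1 library, so no test between groups was possible. Every 95% interval below covers counting error only.

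A dividing cell first licenses and copies its DNA, a step driven by E2F transcription factors, and then builds a spindle and separates its chromosomes under cyclin B with Cdk1. Genes of this later step are commonly read through promoter elements known as CCAAT boxes and the cell cycle genes homology region (CHR). Smooth muscle cells of a healthy aorta rarely divide and express a contractile program. Adventitial fibroblasts, in the outer layer of the wall, can divide and deposit matrix after injury.

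Because the members were picked by cycle genes, 6 promoters are printed as chosen examples of elements that such genes can hold. No element is present in all 6. The sequences are RefSeq promoters on GRCm38.p6, each the 120 bases before the annotated start, written 5' to 3' on the gene's strand. Capitals mark exact matches on either strand to TTTGAA or TTCGAA (CHR), CCAAT, or TTTGGCGC, TTTCCCGC, TTTCGCGC or TTTGCCGC (E2F). Cdk1 (chr10:69352913-69353032, minus strand), Ube2c (chr2:164769809-164769928, plus strand) and Top2a (chr11:99024190-99024309, minus strand) belong to the rule. Cdc20 (chr4:118437344-118437463, minus strand) activates the ubiquitin ligase that ends mitosis. Mcm6 (chr1:128359706-128359825, minus strand) is a subunit of the replicative helicase, and Hells (chr19:38930870-38930989, plus strand) is a chromatin remodeller of S phase.
Cdk1: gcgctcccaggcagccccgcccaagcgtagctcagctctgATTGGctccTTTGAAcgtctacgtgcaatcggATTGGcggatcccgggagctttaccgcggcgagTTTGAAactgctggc
Ube2c: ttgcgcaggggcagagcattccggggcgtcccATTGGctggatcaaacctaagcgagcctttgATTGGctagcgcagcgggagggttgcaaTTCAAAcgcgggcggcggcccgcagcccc
Top2a: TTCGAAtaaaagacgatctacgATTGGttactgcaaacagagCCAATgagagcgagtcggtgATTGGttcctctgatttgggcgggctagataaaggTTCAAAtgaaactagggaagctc
Cdc20: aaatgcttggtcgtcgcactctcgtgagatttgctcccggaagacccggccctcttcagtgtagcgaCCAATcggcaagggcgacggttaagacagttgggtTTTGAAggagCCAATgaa
Mcm6: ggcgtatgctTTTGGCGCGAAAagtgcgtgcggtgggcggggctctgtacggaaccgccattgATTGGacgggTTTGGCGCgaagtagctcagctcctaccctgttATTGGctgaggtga
Hells: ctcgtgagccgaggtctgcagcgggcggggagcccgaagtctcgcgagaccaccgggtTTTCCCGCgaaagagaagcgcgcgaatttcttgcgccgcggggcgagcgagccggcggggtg

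Over the whole 300-base promoter window of the table, a CHR match was present in 5 of the 6 promoters of the rule genes and in 19.2% of 32851 promoters of all genes. It was present in 12 of 21 promoters of mitotic control genes (57.1%) and in 21 of 27 of spindle genes (77.8%), but in 4 of 34 of replication genes (11.8%). E2F matches had the other distribution, with 12 of 34 replication promoters (35.3%), none of the mitotic control or spindle promoters and 2.26% of all promoters. CCAAT was present in 37.4% of all promoters, in 81.0% of the mitotic control promoters and in 55.9% of the replication promoters. Promoters were found for 29 of 35 replication, 20 of 25 mitotic control and 25 of 30 spindle genes, and the printed Mcm6 window holds an overlapping pair of E2F matches. A match describes letters and not a bound site.

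Cycling cells were rare in SHF_Baseline and more frequent in SHF_AngII and CNC_AngII, above all among fibroblasts. CNC_AngII has no baseline library of its own lineage here, so its shares show no change from baseline. SHF_Baseline held 7 of them among 7336 cells that passed the filter and lacked Ptprc and Pecam1, SHF_AngII 604 of 8907 and CNC_AngII 443 of 8465. In the fibroblast gate the share was 0.214% (7 of 3273 cells, exact Clopper-Pearson interval 0.0860 to 0.440) in SHF_Baseline. It was 15.7% (381 of 2421, interval 14.3 to 17.2) in SHF_AngII and 14.2% (112 of 787, interval 11.9 to 16.9) in CNC_AngII. The intervals of the AngII libraries overlapped, and both lay far above that of SHF_Baseline.

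In the smooth muscle gate the shares were lower. SHF_Baseline had 0 of 2090 cells, which allows a share of up to 0.144%. SHF_AngII had 36 of 4523 (0.796%, interval 0.558 to 1.10) and CNC_AngII 157 of 6207 (2.53%, interval 2.15 to 2.95). In this gate the AngII libraries did not overlap, and CNC_AngII was the higher. These shares rest on the rule's own genes, so they are descriptions.

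**Figure D1:**
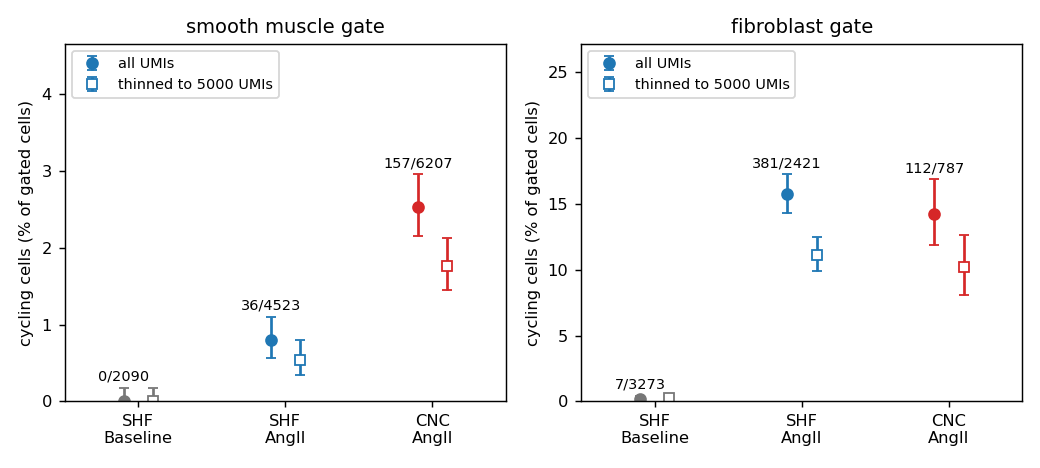
Share of cycling cells (y axis, percent of the gated cells) in each library (x axis) for the smooth muscle gate and the fibroblast gate, with exact 95% intervals as bars. Filled circles use all UMIs and open squares cells thinned to 5000 UMIs. Numbers give members over gated cells. The smooth muscle share was 0.796% in SHF_AngII and 2.53% in CNC_AngII, and the fibroblast share 15.7% and 14.2%.

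Depth moved with these shares. In the smooth muscle gate, members had a median of 31695 UMIs in SHF_AngII and 29978 in CNC_AngII, and cells of the gate with none of the 6 genes had 13227 and 13054. In the fibroblast gate the medians were 20773 against 13693 and 19156 against 10622. When every cell was thinned to 5000 UMIs, with 56 and 77 shallower smooth muscle cells and 132 and 70 shallower fibroblasts left out, the smooth muscle shares were 0.537% and 1.76% and the fibroblast shares 11.1% and 10.2%. The order of the libraries in each gate was as before. A rule of 3 detected genes favours deep barcodes, and its part in the depth difference was not tested. Members also had a lower median mitochondrial share in the smooth muscle gate (4.0% against 5.43% in SHF_AngII, 3.74% against 5.19% in CNC_AngII).

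The label mesenchymal went against the markers of some members, and others fell outside both gates. Cells with at least 5 UMIs of Myh11 and at least 1 of Pdgfra gave 48 members in SHF_AngII and 36 in CNC_AngII. Cells in neither gate gave 139 and 138. Of 10 macrophage or monocyte markers, at least 3 were detected in 78 of the 138 CNC_AngII members in neither gate (56.5%), where the summed level of the list was 13189 CPM (counts per 1000000 UMIs) and none of the 10 was at 0. They were also detected in 31 of 157 members of the smooth muscle gate of CNC_AngII (19.7%, against 3.38% of its other cells) and in 23 of 112 of the fibroblast gate (20.5% against 3.94%). Over all gates, at least 3 of these markers were detected in 139 of 443 members of CNC_AngII (31.4%, against 5.86% of its other cells). In SHF_AngII this held for 2 of 604 members. The doublet caller Scrublet marked 4 of 36 and 15 of 157 smooth muscle members (11.1% and 9.55%, against 1.24% and 1.47% of the other cells). It marked 0 of 381 and 3 of 112 fibroblast members, against 0.119% and 0.358% of the other cells. Among cells with both genes it marked 13 of 48 SHF_AngII members (27.1%, against 20.2% of the other cells). In CNC_AngII it marked 3 of 36 of these members (8.33%, against 10.2%). The part of such cells in the results was not tested, and values without the cells that carry macrophage markers, or at least 4 of 5 fibroblast markers in the smooth muscle gate, stand beside the results they touch. That filter kept 24 of 36 and 122 of 157 smooth muscle members and 380 of 381 and 89 of 112 fibroblast members.

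The gated members otherwise carried the markers of their gate that the rule did not use. All 5 smooth muscle markers besides Myh11 were detected in the smooth muscle members of both AngII libraries, with a summed level of 37310 CPM in SHF_AngII and 31424 in CNC_AngII. All 5 fibroblast markers besides Pdgfra were detected in the fibroblast members, with 9464 and 7856 CPM. Detection alone does not separate the gates. In SHF_AngII all 5 smooth muscle markers were also detected in fibroblast members, at 4997 CPM. All 5 fibroblast markers were detected in its smooth muscle members, at 1925 CPM. The summed level of each list was higher in its own gate there. Lymphocyte markers summed to at most 4.44 CPM in gated members. Libraries shared 29 to 34 cell barcodes pairwise, and none of these was a member in both.

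The genes of the rule were seen in most members. Ube2c, the ubiquitin-conjugating enzyme of mitotic exit, stood at 650 and 599 CPM in smooth muscle members of SHF_AngII and CNC_AngII and 692 and 742 CPM in fibroblast members. Mki67, the proliferation antigen Ki-67, was detected in 29 of 36 and 146 of 157 smooth muscle members and in 323 of 381 and 93 of 112 fibroblast members. Cenpf, a kinetochore protein, was the least often detected, in 77.8%, 74.5%, 68.2% and 69.6%. Members at the threshold of 3 genes were a minority. In the fibroblast gate of SHF_AngII, 56 members had exactly 3 of the 6 genes, with a median of 6 UMIs over the 6 genes, and 178 had all 6. Just outside, 76 cells had 2 genes with a median of 2 UMIs. In the smooth muscle gate of CNC_AngII, 17 members had 3 genes with a median of 6 UMIs, 108 had all 6, and 30 cells just outside had 2 genes with a median of 2 UMIs. In SHF_AngII the smooth muscle gate had 8 members at 3 genes and 15 cells at 2. Cells with 1 or 2 of the genes were left out of the comparisons below, which set members against cells of the same gate with none. These cells number 4276 and 5654 in the smooth muscle gate of SHF_AngII and CNC_AngII and 1682 and 558 in the fibroblast gate.

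Among the 7 baseline members, all in the fibroblast gate, 5 had all 6 cycle genes, 1 had 5 and 1 had 3. The last held only 1352 UMIs, and the other 6 held 12382 to 33382. All 7 had UMIs of the fibroblast matrix gene Dcn and none had Lyz2, a macrophage gene. Pi16, a marker of adventitial progenitor-like fibroblasts, was present in 6 of 7, and Cthrc1, a gene of activated fibroblasts, had 1 UMI in 1 of 7. Spindle genes summed to 21405 CPM (exact Poisson interval 20608 to 22224) in these cells and to 769 CPM in the other fibroblasts of that library. Replication genes summed to 1163 CPM (interval 983 to 1366) and 275 CPM.

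Next, members were compared with the other cells of their gate within each AngII library. This contrast was used by the rule, and the other cells were required to lack 6 cycle genes, so the values describe the members and carry no test. Ratios are log2((CPM + 1)/(CPM + 1)) of summed UMIs, and a gene is called past 2-fold. Intervals are conditional binomial intervals of the ratio without the added 1. Where CPM levels are set against each other below, other cells come first and members second. For shares of cells, members come first. Among genes with a mean of at least 50 CPM, 161 were past 2-fold higher and 71 lower in smooth muscle members of SHF_AngII (6.27% and 2.77% of the 2567 genes measured), and 177 and 82 in CNC_AngII (6.87% and 3.18%). In fibroblast members the counts were 123 and 36 in SHF_AngII (4.7% and 1.38%) and 138 and 57 in CNC_AngII (5.25% and 2.17%). Of the genes measured in both libraries, 136 were higher in smooth muscle members of both, which is 88.9% of those called in SHF_AngII and 86.6% of those in CNC_AngII. For genes lower in smooth muscle members, 49 were shared (76.6% and 62.0%). In fibroblast members 107 higher genes (91.5% and 86.3%) and 28 lower genes (82.4% and 53.8%) were shared. The overlap was smaller for lower genes, above all as a share of the CNC_AngII calls.

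The scaling matters for the smooth muscle gate. TMM scaling, which uses a trimmed mean of gene ratios, moved the median of all genes by -0.22 on the log2 scale in both libraries, from 0.09 and 0.08 to -0.14 and -0.14. With it, 112 genes were higher and 136 lower in SHF_AngII, and 130 and 152 in CNC_AngII. A gene or list near no difference in this gate has no fixed direction for that reason.

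Genes of DNA replication were higher in the members throughout. The level asked of a gene, here and in the lists below, is the mean of members and other cells. A cycle gene near 0 in other cells thus passes only where members are high, so counts of cycle genes are descriptions. Of the 35 on the list, all 26 and 29 that reached a mean of 10 CPM were past 2-fold higher in smooth muscle members of SHF_AngII and CNC_AngII, beside 9.73% and 9.41% of all genes at that level, and 28 of 28 and 29 of 29 in fibroblast members, beside 5.36% and 6.26%. The median log2 ratios were 3.82 and 3.997 in smooth muscle and 3.11 and 3.19 in fibroblasts, where the median over all genes at that level was between 0.05 and 0.15. Rrm2, the regulated subunit of ribonucleotide reductase, stood at 0.349 CPM in other smooth muscle cells and 104 CPM in members of SHF_AngII, and at 0.690 and 115 CPM in CNC_AngII. Pcna, the sliding clamp of DNA polymerase, had a substantial level in non-cycling cells, 34.0 against 210 CPM and 31.8 against 229 CPM, with ratios of 2.59 and 2.81. Mcm6, whose promoter is printed above, went from 32.0 to 89.4 CPM and from 36.6 to 114 CPM.

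Genes of mitosis had larger ratios. The rule's own genes had a CHR match in 5 of 6 promoters and an E2F match in 1. The rule may favour mitotic RNA, which was not tested. The larger size is therefore not read as a result about the cells. All 30 spindle genes were past 2-fold higher in each of the 4 comparisons, with medians between 5.37 and 5.80. So were 20 of the 21 mitotic control genes that reached 10 CPM in each. Of all genes at that level, 5.36% to 9.73% were past 2-fold higher. Prc1, which bundles the spindle midzone, stood at 0.952 CPM in other smooth muscle cells and at 347 CPM in members of SHF_AngII, a log2 ratio of 7.48 (interval without the added 1, 8.11 to 8.92). In CNC_AngII its level was 0.998 and 378 CPM (7.57, interval 8.24 to 8.91). Stmn1, which destabilises microtubules, went from 4.77 to 882 CPM and from 5.59 to 905 CPM. Hmmr, a spindle-associated hyaluronan receptor, led in fibroblasts with 178 CPM in SHF_AngII and 209 CPM in CNC_AngII members, where its level in the other cells was under 1 CPM. Cdc20 was 250 and 289 CPM in fibroblast members and 195 and 177 CPM in smooth muscle members. Ccna2 and Ccnb1, the cyclins of S phase and mitosis, and Pclaf, a partner of Pcna, were also among the 10 leading genes of both gates. The histone gene Hist1h2ap, also among these, belongs to a family of near-identical copies, so its count is uncertain.

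Genes of chromatin and repair were higher too. All 17 chromatin genes were higher in each comparison, 16 or 17 of them past 2-fold, beside 5.36% to 9.73% of all genes at 10 CPM. H2afz, a histone variant, was 202 against 1630 CPM and 182 against 1474 CPM in smooth muscle, and 221 against 2033 CPM and 201 against 1825 CPM in fibroblasts. Of 15 repair genes, 6 and 6 reached 10 CPM in smooth muscle and 5 and 5 in fibroblasts, and each of these was past 2-fold higher. In smooth muscle of SHF_AngII the list summed to 57.1 CPM in other cells and 385 CPM in members. Its genes thus reached the level mainly through the members.

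**Figure D2:**
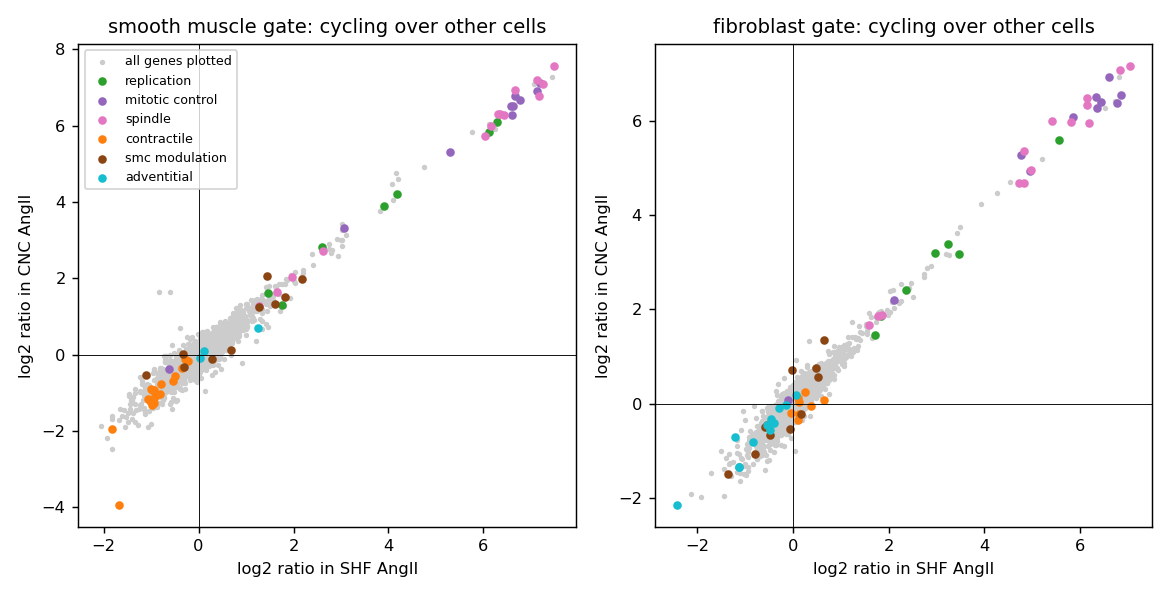
Log2 ratio of cycling over other cells in SHF_AngII (x axis) and CNC_AngII (y axis) for each gene measured in both, without the genes of the rule. Grey points are all genes and coloured points are genes of 6 lists. Replication, mitotic control and spindle genes lie at the upper right in both gates, contractile genes lie below 0 in the smooth muscle gate, and most adventitial genes lie below 0 in the fibroblast gate.

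Genes of the G1 gate of the cycle, its cyclins, inhibitors and growth arrest genes, were mixed. Of the 27 genes on this list, 21, 21, 21 and 20 reached 10 CPM, of which 4, 4, 3 and 3 were past 2-fold higher and 1, 2, 2 and 2 lower in smooth muscle of SHF_AngII, smooth muscle of CNC_AngII, fibroblasts of SHF_AngII and fibroblasts of CNC_AngII. Of all genes at that level, 9.73%, 9.41%, 5.36% and 6.26% were higher and 2.55%, 2.47%, 1.39% and 2.42% lower. Counts of 1 or 2 lower genes are too few to set against these shares. Cdkn2c and Cdkn2d, which inhibit the kinases that pair with D cyclins, were among the higher genes of the list. Cdkn2d stood at 34.8 against 240 CPM in smooth muscle of SHF_AngII, 31.6 against 244 CPM in CNC_AngII, and 32.5 against 191 and 34.1 against 168 CPM in fibroblasts. Cdkn1c, an inhibitor linked to quiescence, was lower in fibroblast members, 164 against 59.6 CPM in SHF_AngII (-1.44, interval -1.59 to -1.32) and 89.6 against 33.4 CPM in CNC_AngII (-1.40, interval -1.79 to -1.07). In smooth muscle Cdkn1c gave -0.32 and -0.20. Cdkn1b, another inhibitor of this family, had ratios of -0.10 to 0.15 in the 4 comparisons, each with an interval that spans 0. Btg2, an antiproliferative gene, was lower in smooth muscle members, 565 against 250 CPM and 530 against 233 CPM. Trp53 was higher, with 0.83 and 1.01 in smooth muscle and 0.54 and 0.68 in fibroblasts.

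Genes that support growth were somewhat higher. In the list of nucleolar and nucleotide synthesis genes, 13 of 15, 16 of 16, 15 of 16 and 15 of 16 were above 0, with medians of 0.52, 0.66, 0.42 and 0.57, and no alternative moved a median to 0 or below. Ran, a GTPase of nuclear transport that also acts in spindle assembly, had the level 275 against 798 CPM and 253 against 765 CPM in smooth muscle, with ratios of 1.53 and 1.59, and 1.53 and 1.70 in fibroblasts. Npm1, the nucleolar nucleophosmin, gave 0.43 and 0.67 in smooth muscle and 0.42 and 0.55 in fibroblasts. Glycolysis genes had medians between -0.10 and 0.36 and none was past 2-fold. Immediate early genes, which respond within minutes to stimuli, were lower: 13 of 15, 14 of 15, 15 of 15 and 14 of 15 were below 0. Their medians were -0.31, -0.42, -0.48 and -0.51. In fibroblasts of CNC_AngII 1 of 15 was past 2-fold lower, beside 2.42% of all genes at 10 CPM, and none was elsewhere. Fos, the best known of them, stood at 2687 against 1469 CPM and 2342 against 1468 CPM in smooth muscle.

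The RNA balance of cycling cells was examined per cell, at 5000 UMIs each. With 3 tubulin genes and Stmn1 left out, 66.7% of 36 smooth muscle members of SHF_AngII (interval 49.0 to 81.4) held more mitotic than replication UMIs. The shares were 63.7% of 157 in CNC_AngII (55.7 to 71.2), 65.4% of 373 fibroblast members of SHF_AngII (60.3 to 70.2) and 59.3% of 108 of CNC_AngII (49.4 to 68.6). The 4 intervals overlapped. The median member held 10, 12, 11 and 11 replication UMIs and 17, 22, 23 and 21.5 mitotic UMIs, and the median other cell held 1 of each. With the tubulins and Stmn1 counted, the shares were 100%, 89.8%, 92.2% and 91.7%, but other cells of the gates then gave 86.2% to 94.0% too. All 6 baseline members that were deep enough held more mitotic than replication UMIs, with medians of 112 and 3.5. The rule that chose the members may favour mitotic RNA, which was not tested. The mitotic control and spindle lists, of 25 and 30 genes, together also hold more genes than the replication list of 35. A share above 50% thus does not place the cells in mitosis. No cycling is read from this balance alone, and free RNA in the droplets was not tested.

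**Figure D3:**
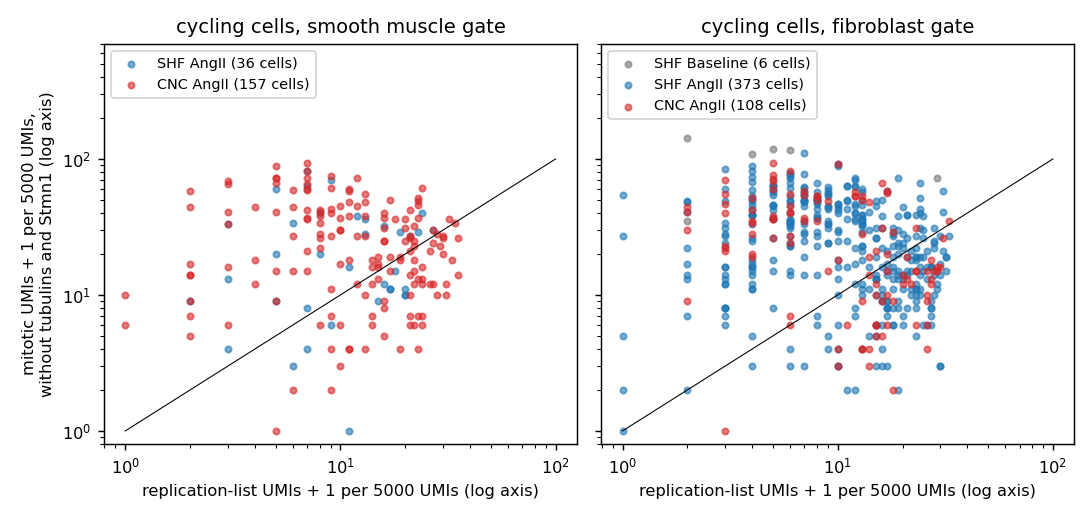
Each point is 1 cycling cell thinned to 5000 UMIs, with replication-list UMIs on the x axis and mitotic UMIs without tubulins and Stmn1 on the y axis (both plus 1, log axes), coloured by library, and the line marks equality. Both gates hold cells on each side of the line, with 63.7% and 66.7% of the smooth muscle members above it.

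Contractile genes were lower in cycling smooth muscle cells. All 19 that reached 10 CPM were below 0 in both libraries, with 4 past 2-fold lower in SHF_AngII and 9 in CNC_AngII, beside 2.55% and 2.47% of all genes at that level. The median log2 ratio was -0.93 in each library, and it stayed between -1.15 and -0.68 over the alternatives. The gate asks for at least 5 UMIs of Myh11 at any depth, so deeper cells can enter at a lower share of Myh11. Myh11 itself was 1895 CPM in other cells and 752 CPM in members of SHF_AngII, and 1869 and 657 CPM in CNC_AngII. The part of this cut in the contractile difference was not tested. Acta2, smooth muscle actin, stood at 36156 CPM in other cells and 18953 CPM in members of SHF_AngII (-0.93, interval -0.95 to -0.91), and at 35182 and 15891 CPM in CNC_AngII (-1.15, interval -1.16 to -1.14). Cnn1, calponin, was 1979 against 1035 CPM and 1849 against 774 CPM. Ppp1r14a, which inhibits myosin phosphatase, was lower by more, 1359 against 383 CPM (-1.82) and 1317 against 342 CPM (-1.94). Des, the intermediate filament protein desmin, was 665 against 207 CPM (-1.68, interval -1.87 to -1.50) in SHF_AngII and 95.2 against 5.28 CPM (-3.94, interval -4.80 to -3.61) in CNC_AngII. Myocd, the coactivator of these genes, and Cald1, caldesmon, were nearer to no difference, with -0.28 and -0.12 for Myocd and -0.22 and -0.16 for Cald1. Myocd in CNC_AngII lay above 0 under 3 alternatives, the stricter cell filter, the marker filter and the deeper other cells.

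Per cell, the count of contractile UMIs depended on which other cells were taken. A median member of SHF_AngII held 1590 UMIs of the list and a median other cell 1331.5. In CNC_AngII these were 1277 and 1199.5. Other cells within the 10th to 90th percentile of the members' depth (medians of 19452.5 and 23885 UMIs) held 1878 and 1853, more than the members. As a share of a cell's UMIs the list made 5.61% in members of SHF_AngII (10th to 90th percentile 2.93 to 8.10) and 10.0% in other cells (6.61 to 13.2), and 4.27% (2.99 to 7.04) and 9.30% (6.20 to 12.3) in CNC_AngII. All other UMIs together numbered 29434 in the median member and 11862 in the median other cell of SHF_AngII. Among these deeper other cells the contractile share was 9.40% in SHF_AngII and 7.60% in CNC_AngII, so both stayed above the members. These cells were still shallower than the members, whose medians were 31695 and 29978 UMIs. The share in other cells was lower among the deeper cells, so depth was not fully matched. Without cells carrying markers of another type, the members' shares were 5.61% and 4.57%.

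**Figure D4:**
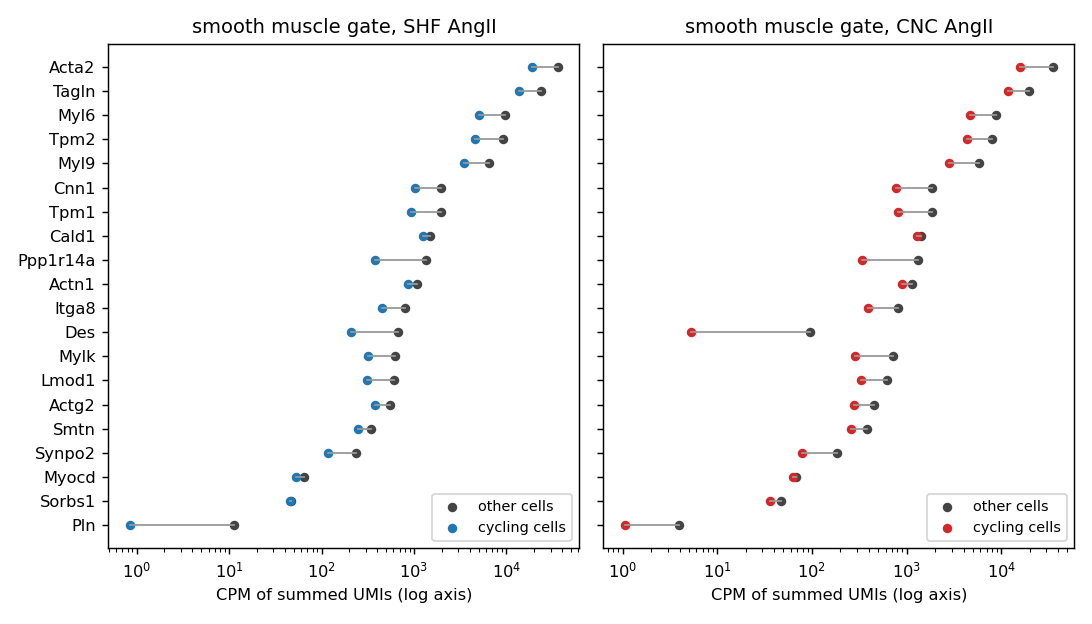
Level of each contractile gene (x axis, CPM of summed UMIs, log axis) in other cells (dark points) and cycling cells (coloured points) of the smooth muscle gate, for SHF_AngII and CNC_AngII. In both libraries the cycling cells lie to the left for the 19 genes that reached 10 CPM, with Acta2 at 36156 and 18953 CPM in SHF_AngII. Pln, the lowest row, is below that level.

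Genes that mark a change of smooth muscle phenotype were higher in part. Of 16 on the list, 8 of 16 and 7 of 15 that reached 10 CPM were past 2-fold higher, and 1 and 0 lower, with medians of 1.03 and 0.89. Of all genes at that level, 9.73% and 9.41% were higher and 2.55% and 2.47% lower. Over the alternatives the medians ran from 0.57 to 1.08 and from 0.06 to 1.16. Spp1, osteopontin, stood at 137 against 621 CPM in SHF_AngII (2.18, interval 2.07 to 2.29) and 228 against 903 CPM in CNC_AngII (1.98, interval 1.94 to 2.03). Without cells carrying markers of another type its ratio was 2.71 and 1.86, and against the deeper other cells 1.45 and 0.88. Timp1, an inhibitor of matrix metalloproteinases, was 263 against 935 CPM (1.83) and 233 against 664 CPM (1.51), with 1.31 and 0.59 against the deeper other cells. Vcam1 (1.44 and 2.06), an adhesion molecule for leukocytes, the hyaluronan receptor Cd44 (1.27 and 1.24) and the matricellular gene Thbs1 (1.61 and 1.32) were higher too. Other list members were not: Igfbp2, which binds insulin-like growth factors, was 1331 against 616 CPM and 1487 against 1021 CPM, and the proteoglycan Acan gave 0.29 and -0.11.

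Parts of this list moved when cells carrying markers of another type were left out, not always in the same direction. Ly6a had ratios of 1.66 and 2.09, and -0.28 and 0.00 without cells carrying markers of another type. Ccl2, a monocyte chemokine, had 2.34 and 2.54, and 2.46 and -0.07 without them. For Dcn, the values were 0.79 and 0.89, and 1.20 and -1.10 without them. Dcn is itself a fibroblast marker of that filter, so its change is fixed in part. Macrophage markers summed to 1068 CPM in smooth muscle members of CNC_AngII and 118 CPM in the other cells, with none of 10 at 0, and to 14.3 and 2.30 CPM in SHF_AngII, where Adgre1 and Fcgr1 were at 0. Fibroblast markers summed to 1925 CPM in members and 1409 CPM in other cells of SHF_AngII, and to 1311 and 1208 CPM in CNC_AngII. Mesothelial markers, 5 of 5 with a UMI, summed to 109 CPM in the 36 smooth muscle members of SHF_AngII and 2.78 CPM in the other cells, with a 90th percentile of 0 UMIs over the members, so that few members held them. All 5 were at 0 in smooth muscle members of CNC_AngII. The filter on markers of another type does not use this list, and its part in the results was not tested.

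Counted by cell at 5000 UMIs, Spp1 had a UMI in 33.3% of smooth muscle members of SHF_AngII (interval 18.6 to 51.0) and in 5.24% of other cells. In CNC_AngII the shares were 36.3% (28.8 to 44.3) and 12.05%. Without cells carrying markers of another type they were 33.3% and 4.94%, and 38.5% and 11.6%. Timp1 had a UMI in 86.1% (70.5 to 95.3) against 37.7% of cells in SHF_AngII and in 77.7% (70.4 to 84.0) against 37.2% in CNC_AngII. Des had a UMI in 27.8% against 43.9% of cells in SHF_AngII and in 2.55% against 12.5% in CNC_AngII. In fibroblasts, which lack desmin, 3.65% and 1.42% of other cells had a UMI of it, so the members of CNC_AngII lie at the background for Des.

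Other genes that led the lower side in smooth muscle members were Sost, a Wnt inhibitor, with 568 against 148 CPM and 682 against 150 CPM (-1.93 and -2.17), and Ogn, a small proteoglycan, with 168 against 46.4 CPM and 129 against 22.6 CPM. Gstm1, a glutathione transferase of a family with similar copies, gave -2.05 and -1.86. Ccn3, a matricellular growth regulator, was 1163 against 379 CPM and 808 against 265 CPM. Lims2, an adhesion adaptor, and Fbxl22, a muscle F-box protein, gave -1.83 and -1.61, and -1.55 and -1.90. The ligands of the TGF-beta family split in both libraries: Tgfb1 was 43.6 against 97.8 CPM and 48.3 against 118 CPM, whereas Tgfb2 was 176 against 78.4 CPM and 168 against 80.3 CPM, and Tgfb3 74.3 against 24.5 CPM and 67.0 against 24.9 CPM. Over all growth factors and receptors the medians were 0.08 and -0.02, and TMM scaling made them -0.14 and -0.24.

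Cycling fibroblasts had less adventitial progenitor RNA than the other fibroblasts. Of 13 adventitial genes that reached 10 CPM, 12 were below 0 in each library, 4 and 3 of them past 2-fold, beside 1.39% and 2.42% of all genes at that level. The medians were -0.54 and -0.56 and stayed between -0.70 and -0.45 over the alternatives. Clec3b, tetranectin, led with 389 against 72.0 CPM in SHF_AngII (-2.42, interval -2.56 to -2.31) and 355 against 79.5 CPM in CNC_AngII (-2.15, interval -2.39 to -1.94). Pi16 was 1525 against 698 CPM (-1.13) and 1650 against 648 CPM (-1.35). Igfbp6, Ly6c1, Dpt and Cd34 gave -1.21 and -0.70, -0.84 and -0.82, -0.48 and -0.56, and -0.47 and -0.33. The exception was Cd248, endosialin, with 0.07 and 0.19.

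As shares of cells the difference was smaller. Pi16 had a UMI in 75.3% of fibroblast members of SHF_AngII (interval 70.6 to 79.6) and 80.7% of other cells, and in 72.2% (62.8 to 80.4) and 79.6% in CNC_AngII. Among smooth muscle cells, which should lack it, 4.62% and 1.77% of other cells had a UMI. Most cycling fibroblasts thus still carried Pi16 RNA. For Cdkn1c the shares were 17.7% against 35.0% and 11.1% against 26.3%.

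Genes of activated fibroblasts had no common direction, with medians of 0.06 and -0.06. Cthrc1, collagen triple helix repeat containing 1, was 564 CPM in other cells and 714 CPM in members of SHF_AngII (0.34, interval 0.30 to 0.38). In CNC_AngII these levels were 456 and 660 CPM (0.53, interval 0.44 to 0.62). It had a UMI in 61.1% of members against 44.6% of other cells in SHF_AngII and 60.2% against 43.5% in CNC_AngII. Other smooth muscle cells gave 2.87% and 0.681% for Cthrc1. Postn, periostin, was 272 against 471 CPM and 320 against 494 CPM. Comp, a cartilage matrix protein, was 125 against 87.7 CPM and 259 against 198 CPM. Cilp, which acts against growth factor signalling, was lower by more, 212 against 63.7 CPM and 161 against 57.4 CPM. Acta2 was 1851 against 2397 CPM in SHF_AngII and 2098 against 2018 CPM in CNC_AngII.

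Further genes on the lower side in cycling fibroblasts were Tnxb, a tenascin of the matrix (-1.92 and -1.97), Slfn5, an interferon-induced gene (-2.13 and -1.91), Htra3, a serine protease (-1.30 and -1.53), and the immune proteins Lbp (-1.33 and -1.27) and C4b (-1.32 and -1.26). Gstm1 was lower here as well (-1.45 and -1.96). Spp1 had the other direction than in smooth muscle, 234 against 91.3 CPM (-1.35, interval -1.47 to -1.25) and 604 against 215 CPM (-1.49, interval -1.63 to -1.36). Its share of cells did not follow: 10.5% of members against 9.22% of other cells in SHF_AngII and 13.9% against 13.97% in CNC_AngII, so no order is read from the shares. The growth factor gene Igf1 and the receptor gene Pdgfrb were nearly level, with ratios of -0.02 and -0.06 and of 0.00 and -0.15.

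**Figure D5:**
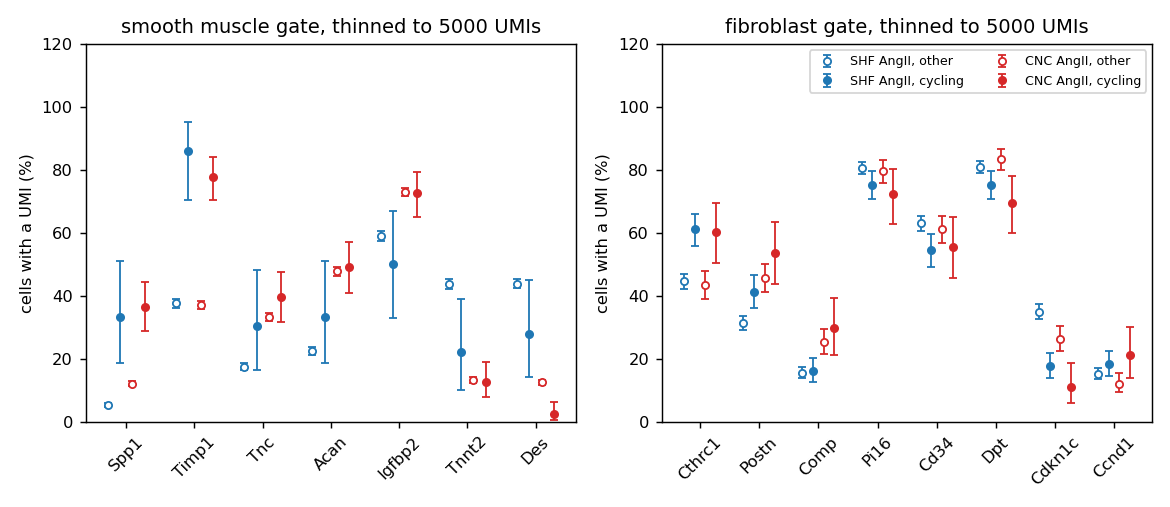
Share of cells with a UMI of each gene (y axis, percent, cells thinned to 5000 UMIs) for cycling (filled) and other cells (open) of SHF_AngII and CNC_AngII, with exact 95% intervals, in the smooth muscle gate and the fibroblast gate. Spp1 and Timp1 lie higher in cycling smooth muscle cells of both libraries, and Cthrc1 higher and Cdkn1c lower in cycling fibroblasts of both.

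Last, members of CNC_AngII were set beside members of SHF_AngII. They had been chosen for cycle genes in both libraries, so their cycle genes are given as a description. No gene of the replication, mitotic control, spindle, chromatin or repair lists was past 2-fold in either gate, beside 1.15% of all genes at a mean of 10 CPM higher and 1.24% lower in the smooth muscle gate and 0.621% and 0.31% in the fibroblast gate. With shares this low, a count of 0 among the list genes is near the background. The list medians lay between -0.02 and 0.21. Prc1, for example, was 347 CPM in SHF_AngII and 378 CPM in CNC_AngII in smooth muscle, and 251 and 322 CPM in fibroblasts. In the smooth muscle gate 13 genes were past 2-fold higher and 10 lower in CNC_AngII (0.481% and 0.37% of 2705 genes). In the fibroblast gate 9 were higher and 8 lower (0.333% and 0.296%).

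On the higher side in smooth muscle members, 7 of the 8 leading genes are known from macrophages: Wfdc17, C1qb, Pf4, Lyz2, C1qa, C1qc and Fcer1g. Lyz2, lysozyme, was 3.37 CPM in SHF_AngII and 287 CPM in CNC_AngII members, and 0.159 and 43.7 CPM in the other cells. Wfdc17 had no UMI in the 36 SHF_AngII members and 186 CPM in CNC_AngII. Fabp4, a fatty acid binding protein, was 46.4 and 318 CPM. Without cells carrying markers of another type the count of genes past 2-fold higher at a mean of 50 CPM was 2, and without the cells that Scrublet marks it was also 2. With that marker filter the ratios of the 7 macrophage genes still lay between 1.79 and 3.02, and Fabp4 had 0.92. Lyz2, C1qa, C1qb and Fcer1g are markers of the filter, so their fall is fixed in part.

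On the lower side stood Des, with 207 CPM in SHF_AngII and 5.28 CPM in CNC_AngII members (-5.05, interval -5.95 to -4.70), and 665 and 95.2 CPM in the other cells (-2.79). Its ratio was -5.25 without cells carrying markers of another type. Tnnt2, a cardiac troponin, was 155 and 42.7 CPM in members (-1.84) and 481 and 53.9 CPM in other cells (-3.13). Without cells carrying markers of another type the members' ratio for Tnnt2 was -0.35. The fibroblast genes Lum, Dcn, Serpinf1 and Pcolce were lower in CNC_AngII members, with -2.60, -2.56, -1.90 and -1.69, and in the other cells by -2.77, -2.67, -2.15 and -1.06. Tmem176b gave -2.36 in members and -2.29 in other cells. Spp1 was 621 and 903 CPM in members (0.54) and 137 and 228 CPM in other cells (0.73), and Igfbp2 616 and 1021 CPM (0.73) and 1331 and 1487 CPM (0.16).

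In fibroblast members C1qa (0.121 and 101 CPM) and Lyz2 (7.02 and 106 CPM) were the 2 highest. Without cells carrying markers of another type Lyz2, itself a marker of that filter, had a ratio of 1.60. Macrophage markers summed to 20.7 CPM in fibroblast members of SHF_AngII, with Adgre1 and Fcgr1 at 0, and to 447 CPM in those of CNC_AngII, with none at 0. Further genes on the higher side were also higher in the other fibroblasts of CNC_AngII. Serpinb6b, a protease inhibitor, gave 1.91 in members and 1.80 in other cells, the Wnt modulator Sfrp2 1.39 and 1.57, the decoy receptor Tnfrsf11b 1.36 and 1.22, Spp1 1.22 and 1.37, and Comp 1.16 and 1.04. Angptl4, an inhibitor of lipoprotein lipase, gave 1.07 in members (interval 0.86 to 1.30) and 0.29 in other cells (0.18 to 0.41).

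On the lower side in fibroblast members stood Alpl, alkaline phosphatase, with 84.5 CPM in SHF_AngII and 28.9 CPM in CNC_AngII (-1.52, interval -1.94 to -1.18), and -0.73 in other cells (-0.92 to -0.57). Abi3bp, a matrix protein, gave -1.32 and -0.66, the alarmin Il33 -1.26 and -1.03, Pkdcc, a secreted kinase, -1.21 and -0.89, Gdf10, a TGF-beta family ligand, -1.07 and -0.38, and Ckb, creatine kinase, -1.07 and -0.64. Each of these was lower in CNC_AngII in members and in other cells. The difference between members and other cells was not tested, since each group is 1 library, and lineage cannot be told apart from any other difference between the libraries.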

How the data were processed

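The authors deposited raw UMI counts per gene and cell barcode for each library, with no normalisation. Libraries were made with a 3' v3 droplet kit, per the labels' protocols. The submitters' processing notes name fastp, STAR 2.5, HTSeq 0.6.1 and mm10, without roles; the gene annotation and the cell caller are not given in the sources used here. Both AngII tables list 32285 genes and that of the baseline lists 18760, with 514 baseline names matched by synonym. Deposited totals were 92474476 UMIs (SHF_Baseline), 147854476 (SHF_AngII) and 150954701 (CNC_AngII), with medians of 10018.5, 11832 and 12329.5 per barcode.

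Groups were taken from the sample titles. The UMIs of all cells in a group were added up and expressed as CPM, and a pseudocount of 1 was added before log2 ratios. Called genes are past 2-fold at a mean of at least 50 CPM (10 CPM for lists). Intervals are at 95%: exact Clopper-Pearson for shares, exact Poisson for sums and conditional binomial for ratios, with a limit of 3 counts where a share is 0. Nothing was tested, with 1 library per group. No comparison of AngII with baseline members was made, since the baseline held 7 and the minimum was 20. Doublets were marked with Scrublet in scanpy 1.11.5 at an expected rate of 8e-06 per barcode, marked 2.78%, 2.23% and 2.99% of barcodes, and were kept in the main values, as the rule does. The code for ratios and intervals was tested on simulated sums that held counting error only. Spread between cells was not simulated, so that test does not cover it. TMM factors are from edgeR 4.0.16 in R 4.3.3, on the deposited counts. Software also included numpy 2.4.6, scipy 1.17.1 and pandas 2.3.3.

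Named genes are the 10 highest and lowest in both libraries (members against other cells) and the 8 highest and lowest (between libraries), at a mean of at least 50 CPM and a UMI in at least 10% of cells of the higher group, without mitochondrial, ribosomal protein and rule genes; not all are printed. Genes of 15 lists may be named too. Exons of 4 of the 60 genes named by rank (AY036118, Pcolce, Spp1 and Stmn1) overlap another gene on their strand. The members, the 15 gene lists and the 12 marker lists were chosen with earlier results of these data known. The filter on markers of other cell types and the count without tubulins were chosen after seeing the data.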

Additional observations from a re-analysis of the deposited data

Results flagged for a closer look

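Cells that the rule leaves out held cycle genes too. Among cells with a UMI of Ptprc, at least 3 of the 6 cycle genes were detected in 31.6% (541 of 1711 cells, exact interval 29.4 to 33.9) in CNC_AngII. In SHF_Baseline this was 0 of 13 cells, and in SHF_AngII 2 of 19. Among cells with a UMI of Pecam1 the shares were 8.32% (47 of 565, interval 6.18 to 10.9) in SHF_AngII and 12.4% (39 of 315, interval 8.95 to 16.5) in CNC_AngII, and 0.406% (5 of 1232, interval 0.132 to 0.945) in SHF_Baseline. Spp1 differed in direction between the gates: the log2 ratio of cycling over other cells was 2.18 and 1.98 in smooth muscle of SHF_AngII and CNC_AngII, and -1.35 and -1.49 in fibroblasts. In fibroblasts the share of cells with a UMI of Spp1 did not follow the ratio, as given above. The difference between the gates was not tested.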

How the results depend on the processing

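No paired analysis was possible because each group is 1 library, and for the same reason no replicate could be left out. The comparison of AngII with baseline members and its alternatives were not run, since the baseline held 7 members. The cause of a change with a setting was not tested. Of 202 alternative values of the shares, gene counts and mitotic shares, 150 stayed close to the reported value and 52 moved. Reversal was not defined for these values. In the smooth muscle gate TMM scaling changed the order of higher and lower counts. It gave 112 higher and 136 lower genes in SHF_AngII, and 130 and 152 in CNC_AngII. Shares of cycling cells in smooth muscle of SHF_AngII were 1.13% at 2 genes, 2.09% with the stricter cell filter and 0.537% thinned; in smooth muscle of CNC_AngII 3.01%, 4.77%, 1.76%, 3.01% with up to 1 UMI of Ptprc and Pecam1, and 2.08% without cells with markers of another type. In fibroblasts of SHF_AngII they were 18.9% at 2 genes, 13.4% at 4 and 11.1% thinned, and in CNC_AngII 18.2% at 2 genes and 10.2% thinned. Counts of genes higher in members at a mean of 10 and of 100 CPM were 706 and 57, 678 and 69, 391 and 57, and 460 and 58 (smooth muscle of SHF_AngII and CNC_AngII, then fibroblasts). Counts of lower genes were 185 and 45, 178 and 51, 101 (fibroblasts of SHF_AngII, at 10 CPM), and 178 and 31. Against other cells within the members' range of depth, 47 and 38 genes were lower in smooth muscle, and with TMM scaling 136 and 152. Between libraries, genes higher in smooth muscle of CNC_AngII were 86 at 10 CPM, 6 at 100, 20 with stricter gates, and 2 without doublets or without cells with markers of another type; lower genes were 93, 3, and 20 with per-cell shares. In fibroblasts 46, 5 and, with stricter gates, 14 were higher, and 23, 4, 15 without cells with markers of another type and 14 at the same share of mitotic cells were lower. Cells with more mitotic than replication UMIs were 66.7%, 65.4%, 63.7% and 59.3% without tubulins and Stmn1 (smooth muscle and fibroblasts of SHF_AngII, then of CNC_AngII), and 94.3% on all UMIs in smooth muscle of CNC_AngII. Of 2688 alternative values of named genes 1086 lay outside the counting interval of the reported value and 40, from 20 ratios, had the other sign. Of these, 2 belong to ratios reported past 2-fold, both without cells with markers of another type: Ly6a in smooth muscle of SHF_AngII (-0.28) and Ccl2 in that of CNC_AngII (-0.073). Of 1045 list medians 124 moved by more than 0.2 and 70, from 29 medians, had the other sign. With 36 smooth muscle members in SHF_AngII, genes at a few CPM rest on few UMIs.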
